A study of Mus musculus with 30 samples.

Results

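The genes described here encode surface proteins by which early mouse germ cells have long been recognised: *Kit*, *Alpl* and *Itgb3*, and the 3 *Ifitm* genes *Ifitm1*, *Ifitm2* and *Ifitm3*. These 6 genes, of 18193 named on the array, were chosen by name, and every probe set that the platform annotation assigns to them was used, which gave 8 of 45101 probe sets. Each sample was 1 cell taken as a primordial germ cell (PGC), the precursor of eggs and sperm. The cells were picked at E7.25-E7.5 from the base of the allantois bud of embryos of C57BL/6 *Prdm14*+/- parents. PRDM14 is a transcriptional regulator needed for PGC specification. Amplified cDNA of each cell was hybridised to 1 Affymetrix mouse array, after cells had been selected as PGCs by PCR for *Prdm1*, and the deposited genotype labels gave 4 cells as *Prdm14* KO (*Prdm14*-/-), 13 as *Prdm14*+/- and 13 as WT (*Prdm14*+/+). In the KO and *Prdm14*+/- cells the disrupted allele was present from conception in all tissues. No embryo was named in the labels, so each label counted as 1 sample, no test was run, and SDs give the spread between cells.

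KIT is the receptor tyrosine kinase that binds KIT ligand and that germ cells need for survival and migration. *Alpl* encodes tissue-nonspecific alkaline phosphatase, whose enzyme activity has been a classical stain for PGCs. *Itgb3* encodes integrin β3 (CD61), which pairs with integrin αV or αIIb to bind matrix proteins such as fibronectin. The *Ifitm* genes encode small membrane proteins that interferon can induce and that restrict virus entry in many cell types, and *Ifitm3* (also called *fragilis*) and *Ifitm1* are known for their expression in nascent PGCs of the mouse.

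The *Prdm14* transcript did not follow the genotype labels. *Prdm14* transcript ranged from 10.03 to 12.15 on the log2 MBEI scale in the cells labelled KO (median 11.72), from 0 to 11.79 in those labelled *Prdm14*+/- (median 10) and from 0 to 10.44 in those labelled WT (median 0). It thus ran against the labels, and no source used here says whether the deletion covers the probe set, so the cells are given by label throughout, and "KO cells" means cells labelled KO. *Dppa3* was also highest under the label KO, with floored means of 12.55 ± 0.38 (SD, n = 4), 10.23 ± 2.87 (SD, n = 13) and 9.05 ± 2.01 (SD, n = 13) under KO, *Prdm14*+/- and WT. The study reports the reverse, with lower *Dppa3* in its *Prdm14* KO PGCs by microarray and by quantitative PCR. It also reports that *Dppa3* was not activated in *Prdm14* KO PGC-like cells made in vitro. It cites earlier work with weaker staining of the DPPA3 protein in *Prdm14* KO PGCs. The study itself gives other numbers of cells per genotype than the labels do, so each direction between labels below holds for the labels as deposited. MBEI is the model-based expression index, and a value of 6 (64 MBEI) was used as a floor, below which values have no order. Between 9856 and 14204 probe sets were above the floor on an array, and between 58.9% and 69.6% had a deposited value of 0. Codes in the sample titles divide the arrays into 3 runs. All 4 KO cells were in run 3 with 6 of the *Prdm14*+/- cells, the other 7 *Prdm14*+/- cells were in run 2 with 3 WT cells, and run 1 consisted of 10 WT cells, so that no run had both KO and WT cells. Of 7 measured germ cell genes outside the members (*Prdm1*, *Prdm14*, *Tfap2c*, *Dppa3*, *Dnd1*, *Sox2* and *Lin28a*), the mean level, used here as a germ cell score, was 11.37 to 12.09 in the cells labelled KO, 7.28 to 11.57 in those labelled *Prdm14*+/- and 7.78 to 11.57 in those labelled WT. Of 14 measured somatic mesoderm genes, the neighbouring cell type, the mean was 7.35 to 8.62, 7.09 to 9.44 and 7.43 to 9.12 in the same order of labels. In the other marker lists 7 of 14 blood and endothelial genes, among them *Gata1*, *Runx1* and the embryonic globins *Hbb-bh1* and *Hba-x*, and 4 of 9 visceral endoderm genes, among them *Afp* and *Ttr*, were never above the floor. Of the others in these lists, *Sox17* was above it in 23 cells (KO minus WT 1.10) and *Lmo2* in 18 cells (KO minus WT 2.65). The mean over the visceral endoderm list was 6.50 to 7.10 in the cells labelled KO, 6 to 6.60 in those labelled *Prdm14*+/- and 6 to 7.27 in those labelled WT, and that over the blood and endothelial list 6.21 to 6.67, 6.06 to 6.85 and 6.09 to 6.70. The part of these genes in the label differences was not tested.

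*Ifitm1*, *Ifitm2* and *Ifitm3* lie together on chromosome 7, in the order *Ifitm5*, *Ifitm2*, *Ifitm1*, *Ifitm3*, *Ifitm6* along GRCm38.p6, while *Kit* is on chromosome 5 (75574987 to 75656722), *Alpl* on chromosome 4 (137741731 to 137796384) and *Itgb3* on chromosome 11 (104608000 to 104670476). *Ifitm1* runs from 140967429 to 140969827, *Ifitm2* from 140954837 to 140959686 and *Ifitm3* from 141009590 to 141010744. Sequences around a start of each of the 3 genes are shown because these genes, like *Alpl*, were above the floor in all cells. They are also shown because interferon control of this family acts through a short promoter element. Each stretch of 100 bases, from RefSeq for GRCm38.p6, runs from 70 bases before to 30 bases after the start used in the promoter table, on the strand of the gene, and capitals mark the core of the interferon-stimulated response element (ISRE), searched on both strands as GAAA, any 2 bases, GAAA. The positions are chr7:140968006-140968105 on the plus strand for *Ifitm1*, chr7:140955932-140956031 on the minus strand for *Ifitm2* and chr7:141010715-141010814 on the minus strand for *Ifitm3*. The start is the outer end of the gene for *Ifitm3* (141010744), whereas for *Ifitm1* (140968076) and *Ifitm2* (140955961) it lies inside the bounds given above.
Ifitm1: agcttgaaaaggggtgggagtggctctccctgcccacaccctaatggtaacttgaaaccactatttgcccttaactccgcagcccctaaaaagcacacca
Ifitm2: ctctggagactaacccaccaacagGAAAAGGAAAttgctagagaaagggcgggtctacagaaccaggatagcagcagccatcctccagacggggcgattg
Ifitm3: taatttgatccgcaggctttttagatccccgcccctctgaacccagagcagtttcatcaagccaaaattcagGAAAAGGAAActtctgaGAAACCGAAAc
*Ifitm3* had 2 matches, 2 to 11 and 19 to 28 bases into the transcript, *Ifitm2* had 1 match, 46 to 37 bases before the start, and *Ifitm1* had none in its window of 300 bases (250 before to 50 after the start). The core was present in 3.44% of the 32851 windows of this length in the table (1131 windows). The windows of *Kit* and *Alpl* (2 for each gene) held none, and no window for *Itgb3* was used. The TATA box TATAAA, searched in the same way, was found in 13.6% of all windows and among the members in the *Ifitm2* window and in 1 of the 2 *Alpl* windows. A match of letters is a description of the window and does not show a site in use.

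*Ifitm1* and *Ifitm2* varied least of the members from cell to cell, and *Ifitm3* about as much as *Alpl*, with SDs over 30 cells of 0.26, 0.51, 1.0 and 1.01 in that order. All 30 cells had each *Ifitm* gene above the floor, and *Alpl* too, and only 2781 of 45037 probe sets other than array controls (6.17%) were above the floor in every cell. *Ifitm1* was 13.05, 13.36, 13.24 and 13.26 in KO cells 8, 18, 21 and 81. It ranged from 12.18 to 13.37 (median 13.07) in the cells labelled *Prdm14*+/- and from 12.29 to 13.24 (median 13.05) in those labelled WT. The labels overlapped throughout, and the mean of the KO label exceeded that of WT by 0.22 and that of *Prdm14*+/- by 0.21, against pooled SDs between cells of 0.23 and 0.27.

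*Ifitm2*, the least studied of the 3 in germ cells, was 12.56, 13.25, 13.05 and 13.10 in KO cells 8, 18, 21 and 81. Its range was 11.48 to 13.01 (median 12.66) in the cells labelled *Prdm14*+/- and 10.74 to 13.19 (median 12.81) in those labelled WT. The ranges overlapped again, with KO above *Prdm14*+/- by 0.42 (pooled SD 0.38) and above WT by 0.38 (pooled SD 0.57). Within run 3, where the label KO can be set against *Prdm14*+/- on arrays of 1 run, the difference was 0.30 (pooled SD 0.28).

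*Ifitm3* was 13.16, 13.44, 13.34 and 13.28 in KO cells 8, 18, 21 and 81, close together and near the highest value of the gene (13.44). The highest value of an array was 13.72 to 16.05, and 236 probe sets had a median above 13, and whether the scale is compressed at this level was not tested. In the cells labelled *Prdm14*+/- it ran from 10.68 to 13.39 (median 12.97), and in those labelled WT from 8.59 to 13.42 (median 12.87). All but 1 of the WT cells (12 of 13) and 8 of 13 *Prdm14*+/- cells lay below every KO cell, the exception among WT being cell 49 at 13.42. The KO mean of 13.30 ± 0.11 (SD, n = 4) was above the *Prdm14*+/- mean of 12.63 ± 0.89 (SD, n = 13) by 0.68 and above the WT mean of 12.54 ± 1.22 (SD, n = 13) by 0.76, within the pooled SDs of 0.80 and 1.09. Within run 3 the excess over *Prdm14*+/- was 0.86, larger than the pooled SD of 0.68, and 4 of the 6 *Prdm14*+/- cells of that run lay below every KO cell. The label KO also had the highest mean germ cell score (11.85, against 10.10 for *Prdm14*+/- and 9.61 for WT), and the part of that score in the *Ifitm3* difference was not tested.

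The width of the *Ifitm3* range came from a few cells. Over all 30 cells, 91.0% of the 2781 probe sets above the floor in every cell had a smaller SD. For *Ifitm1* 16.9% had a smaller one and for *Ifitm2* 42.1%. Within the 4 KO cells the *Ifitm3* SD was 0.11, and 12.9% of the same probe sets had a smaller one. Without WT cell 61 and *Prdm14*+/- cell 78, left out after their values were seen, the SDs over 28 cells fell to 0.14 for *Ifitm1*, 0.28 for *Ifitm2* and 0.52 for *Ifitm3*. These cells were the lowest for each of the 3 genes, so smaller SDs without them were bound to follow. *Ifitm3* remained the widest of the 3.

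**Figure D1:**
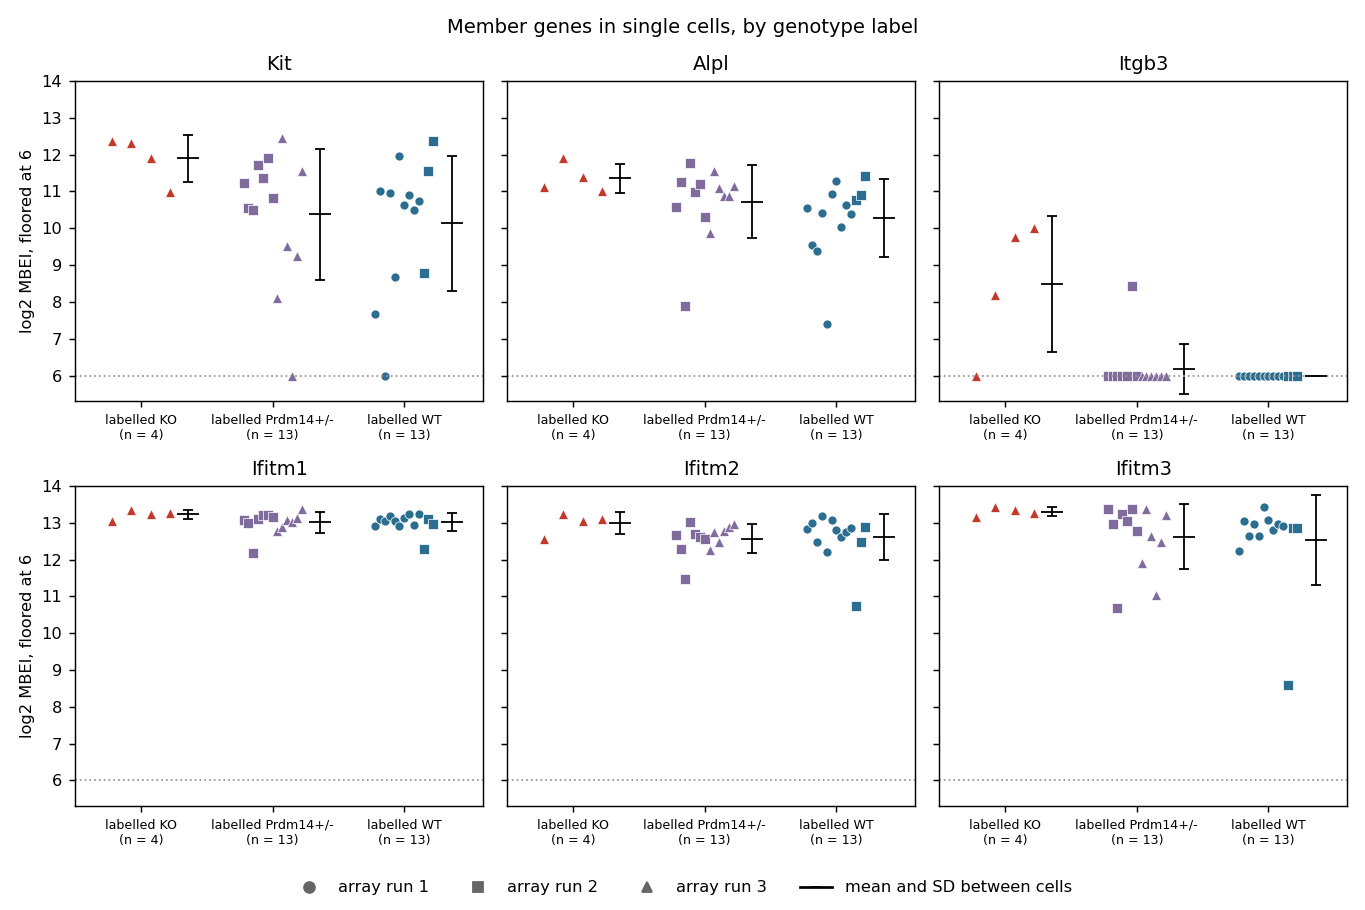
Log2 MBEI of each member per cell, floored at 6 (dotted line), by genotype label. Symbols mark the array run, and black bars the mean and SD between cells. *Ifitm1*, *Ifitm2* and *Ifitm3* have medians over 30 cells of 13.08, 12.74 and 12.97, with WT cell 61 at 8.59 for *Ifitm3*, while *Itgb3* is above the floor in 4 cells.

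The 3 cells with the lowest *Ifitm3* were also those with the 3 lowest germ cell scores and the 3 lowest *Prdm1* levels of the 30, although all 30 had been chosen by PCR for *Prdm1*. WT cell 61 had *Ifitm3* at 8.59, *Ifitm2* at 10.74 and *Ifitm1* at 12.29, with *Kit* at 8.77, *Prdm1* at 8.04, *Dppa3*, a maternal-effect gene of early PGCs, at 3.40 and *Prdm14* listed at 0. *Prdm14*+/- cell 78 had *Ifitm3* at 10.68, *Ifitm2* at 11.48 and *Ifitm1* at 12.18, with *Alpl* at 7.90, *Kit* at 10.49, *Prdm1* at 7.83, *Prdm14* at 8.97, above the floor, and *Dppa3* listed at 0. *Prdm14*+/- cell 100 had *Ifitm3* at 11.05 but *Ifitm2* at 12.77 and *Ifitm1* at 13.02, with *Kit* at 3.85, *Prdm1* at 8.08, and *Prdm14* and *Dppa3* listed at 0. Cells 61 and 78, then, were the 2 lowest of 30 for each of the 3 *Ifitm* genes, whereas in cell 100 *Ifitm3* alone of the 3 stood low. The germ cell scores of cells 100, 78 and 61 were 7.28, 7.43 and 7.78, and their somatic mesoderm scores were 9.44, 8.83 and 9.12, which placed them 1, 6 and 2 from the highest of 30. These arrays were not poor in signal, with 12621, 13445 and 12680 probe sets above the floor, within the range of the others. Whether these cells were PGCs was not tested.

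*Kit* was the member whose level differed most from cell to cell. It was 12.38, 12.33, 11.91 and 10.99 in KO cells 8, 18, 21 and 81. In the cells labelled *Prdm14*+/- it ranged from 3.85 to 12.44 (median 10.83), with cell 100 below the floor, and in those labelled WT from 0 to 12.36 (median 10.73), with cell 31 listed at 0. The ranges overlapped, since 4 of 13 WT cells and 6 of 13 *Prdm14*+/- cells reached or passed the lowest KO cell. *Kit* was above the floor in 4 of 4, 12 of 13 and 12 of 13 cells (KO, *Prdm14*+/- and WT), and the floored means were 11.90 ± 0.64 (SD, n = 4), 10.38 ± 1.78 (SD, n = 13) and 10.13 ± 1.83 (SD, n = 13). The excess of 1.77 over WT was only just larger than the pooled SD of 1.66, and that of 1.52 over *Prdm14*+/- was within its pooled SD of 1.62.

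Set out by run as well as label, the *Kit* means did not follow the labels alone. The mean was 11.90 in KO cells of run 3, 11.15 ± 0.55 (SD, n = 7) in *Prdm14*+/- cells of run 2, 10.90 ± 1.88 (SD, n = 3) in WT cells of run 2, 9.90 ± 1.85 (SD, n = 10) in WT cells of run 1 and 9.48 ± 2.33 (SD, n = 6) in *Prdm14*+/- cells of run 3. The KO cells and the *Prdm14*+/- cells of run 2 differed by 0.75, more than their pooled SD of 0.58 but across runs, and the other neighbours in that order by less than the spread between cells. The 2 groups furthest apart, KO and *Prdm14*+/-, were hybridised in the same run, where their difference was 2.42 (pooled SD 1.88) and 4 of 6 *Prdm14*+/- cells lay below every KO cell. Within run 2, *Prdm14*+/- and WT differed by 0.26 (pooled SD 1.06), and by -0.81 without WT cell 61. For KO against WT, the fit with run blocks gave a *Kit* difference of 2.68, and of 1.62 without that cell.

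The 2 probe sets of *Kit* did not give the same picture. The values above are from the one with the higher mean. The other was listed at 0 in 18 cells and above the floor in 3, all labelled WT, with a highest value of 8.60. Over the 30 cells the floored values of the pair had a Pearson correlation of 0.13. Which *Kit* transcripts each of them detects was not analysed here.

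*Itgb3* was seen in few cells. It was listed at 0 in KO cell 8 and was 8.20, 9.76 and 10.01 in KO cells 18, 21 and 81. Of the cells labelled *Prdm14*+/-, cell 89 had 8.44 and the other 12 were listed at 0, and of those labelled WT, cell 33 had 5.64, below the floor, and the other 12 were listed at 0. The share above the floor was 75% of KO cells (3 of 4, exact Clopper-Pearson 95% interval 19.4% to 99.4%), 7.69% of *Prdm14*+/- cells (1 of 13, interval 0.195% to 36%) and 0 of 13 WT cells, which allows a share of up to 23.1% by the rule of 3 counts of the total and 24.7% by the exact interval. These intervals cover counting error only and treat the cells as independent. The KO interval overlaps both the *Prdm14*+/- and the WT interval. The mean difference of 2.49 from WT is set by the floor, at which every WT cell lay.

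The 4 cells with *Itgb3* also had *Kit*, *Prdm14* and *Dppa3*. Their *Kit* levels were 12.33, 11.91 and 10.99 in KO cells 18, 21 and 81 and 11.90 in *Prdm14*+/- cell 89. *Prdm14* was 12.06, 11.38, 12.15 and 11.15 and *Dppa3* 12.71, 12.80, 12.72 and 12.70 in the same order. Cells without *Itgb3* had values near these, such as KO cell 8 (*Kit* 12.38, *Prdm14* 10.03, *Dppa3* 11.98) and *Prdm14*+/- cell 79 (*Kit* 11.71, *Prdm14* 11.04, *Dppa3* 13.06). *Prdm14*+/- cell 66 had 11.22, 11.19 and 12.61 for the same genes. Taken singly, none of these levels set the 4 cells apart. No other cell reached the lowest *Prdm14* and the lowest *Dppa3* of the 4 at once, but these limits were taken from the 4 cells themselves. Cells 66 and 79 each reached 1 of the 2 limits and lay just below the other. *Itga2b*, which encodes the partner integrin αIIb, was above the floor in all 30 cells at a low and narrow level of 6.81 to 7.81, so it was co-detected with *Itgb3* in 4 of 4. *Itgav*, the αV partner, was above the floor in only 2 of these 4 cells (9.33 in KO cell 18 and 7.59 in *Prdm14*+/- cell 89) and in 18 of the 26 others. The second *Itgb3* probe set was listed at 0 in all 30 cells, and it was the 1 of the 8 probe sets that did not pass the filter of at least 3 cells above the floor.

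**Figure D2:**
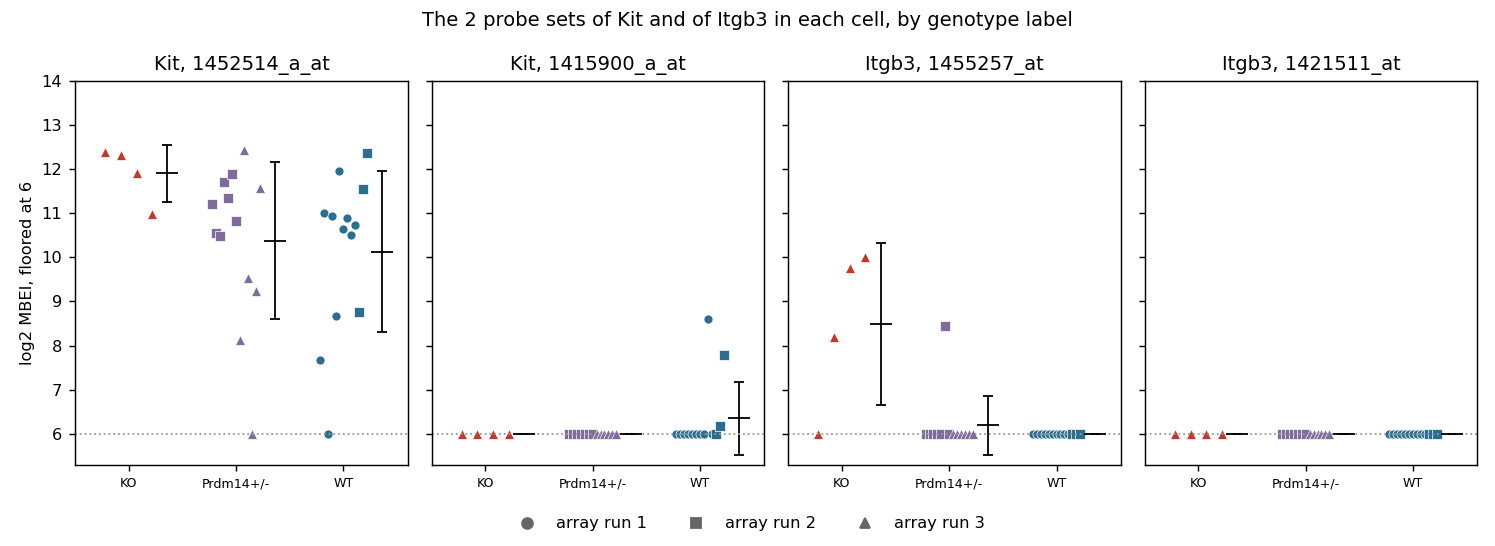
Both probe sets of *Kit* (left pair) and of *Itgb3* (right pair) in each cell, as log2 MBEI floored at 6 (dotted line), by genotype label, with the array run as symbol and the mean and SD between cells as black bars. The second *Kit* probe set is above the floor in 3 WT cells, where the first is above it in 28 cells, and the second *Itgb3* probe set stays at the floor in all 30.

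*Alpl* was above the floor in every cell. It was 11.12, 11.90, 11.39 and 11 in KO cells 8, 18, 21 and 81, 7.90 to 11.78 (median 10.98) in the cells labelled *Prdm14*+/- and 7.40 to 11.42 (median 10.54) in those labelled WT. Of the WT cells 11 of 13 lay below every KO cell, and of the *Prdm14*+/- cells 7 of 13. The mean was 11.35 ± 0.40 (SD, n = 4), 10.73 ± 0.99 (SD, n = 13) and 10.28 ± 1.05 (SD, n = 13) in cells labelled KO, *Prdm14*+/- and WT. Within run 3 KO stayed above *Prdm14*+/-, but in run 2 the mean of *Prdm14*+/- lay below that of WT. The means in order were 11.35 in KO cells of run 3, 11.03 ± 0.35 (SD, n = 3) in WT cells of run 2, 10.91 ± 0.57 (SD, n = 6) in *Prdm14*+/- cells of run 3, 10.57 ± 1.27 (SD, n = 7) in *Prdm14*+/- cells of run 2 and 10.05 ± 1.10 (SD, n = 10) in WT cells of run 1, and neighbours did not differ beyond their spread. The difference of 1.08 between KO and WT (pooled SD 0.96) was -0.0059 with the run as a block. That fit links KO and WT through *Prdm14*+/-, and its link to WT rests on the 3 WT and 7 *Prdm14*+/- cells of run 2. There *Prdm14*+/- minus WT was -0.45 in means (pooled SD 1.12) but 0.07 in medians, with *Prdm14*+/- cell 78 lowest at 7.90. The fit without cell 78 was not run.

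Counted over the members, 3 of 6 genes (*Kit*, *Alpl* and *Itgb3*) were higher by at least 1 in KO than in WT cells, where 11% of the 22044 probe sets that passed the filter were. Between KO and *Prdm14*+/- it was 2 of 6 (*Kit* and *Itgb3*), with 9.42% over all, and within run 3 the same 2, with 11.3%. Between *Prdm14*+/- and WT it was 0 of 6, with 3.19%, and within run 2 it was 1 of 6 (*Ifitm3*, by 1.35), with 8.14%. No member was lower by as much in any of these, where the shares over all probe sets were 6.11% for KO against WT, 5.36% for KO against *Prdm14*+/- and 8.65% in run 3, and 2.55% for *Prdm14*+/- against WT and 12% in run 2. The median over the 6 members was 0.92 for KO against WT, where that of all 22044 was 0.02, and 0.66 for KO against *Prdm14*+/- in run 3, where it was 0.00. The comparisons with KO share the 4 KO cells. Each member was counted by its probe set of highest mean, whereas the shares are over single probe sets. By the other probe set KO minus WT was -0.35 for *Kit* and 0 for *Itgb3*. For *Alpl* it was -0.0059 with the run as a block. *Itgb3* passed the filter only through the cells in which it was high, so these counts are a description. The *Ifitm3* value in run 2 rests on cell 61, 1 of the 3 WT cells there, without which it was -0.07.

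**Figure D3:**
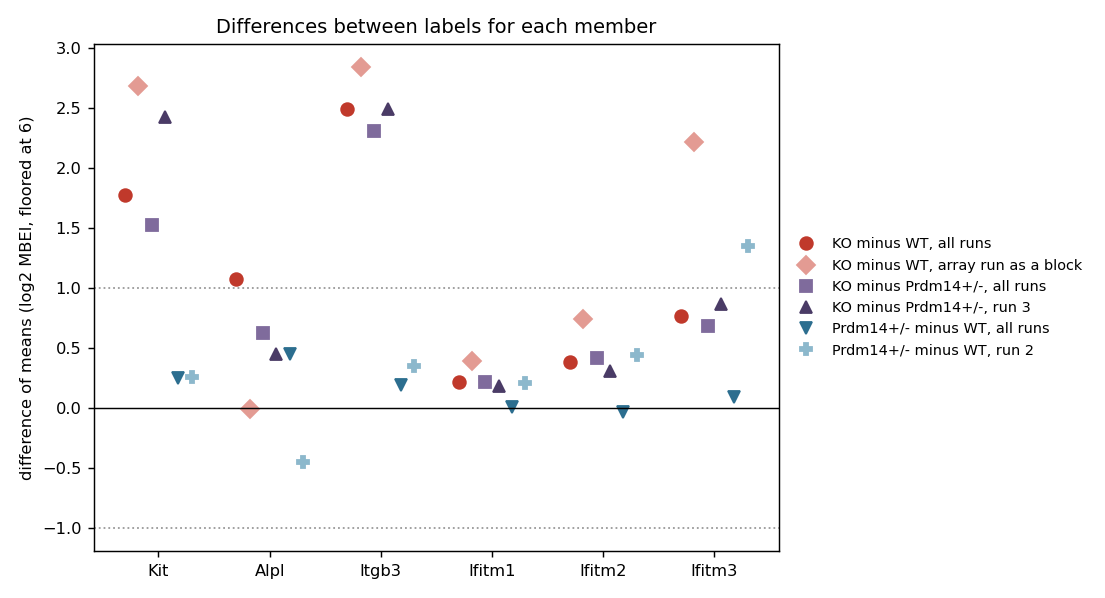
Difference between label means for each member (log2 MBEI, floored at 6), with dotted lines at 1 and -1, for 6 comparisons. *Kit* and *Itgb3* lie above 1 in all 4 comparisons of KO, *Alpl* drops to -0.0059 with the array run as a block, and *Ifitm3* lies at 2.21 in that fit (0.79 without WT cell 61).

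The members were seen together in most cells. The 3 *Ifitm* genes were above the floor in 30 of 30 cells, and *Kit*, *Alpl* and the 3 *Ifitm* genes together in 28 of 30 (4 of 4 labelled KO, 12 of 13 labelled *Prdm14*+/- and 12 of 13 labelled WT). The 2 cells that fell out, *Prdm14*+/- cell 100 and WT cell 31, lacked only *Kit* of these 5. All 6 members were above the floor in 4 cells, 3 labelled KO, 1 labelled *Prdm14*+/- and 0 labelled WT. With the floor lowered to 4 on the log2 scale the 5 genes without *Itgb3* were together in 28 cells and all 6 in 5 cells, and with the floor raised to 8 these were 25 and 4 cells.

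**Figure D4:**
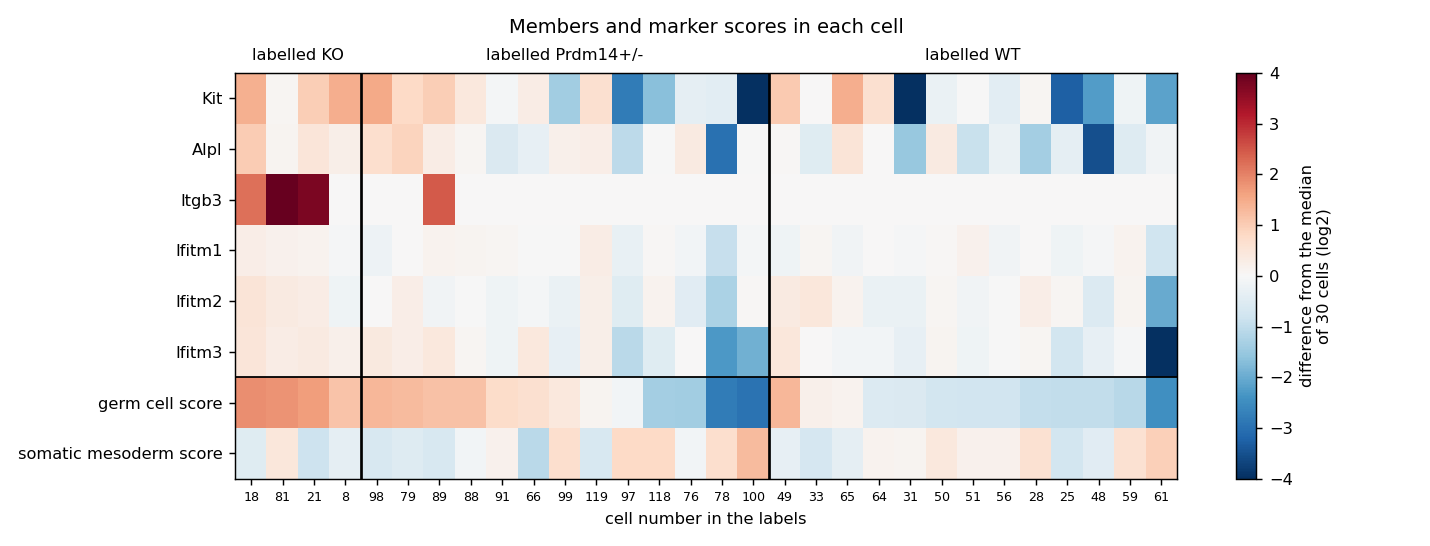
Each member (rows above the line) and the germ cell and somatic mesoderm scores (rows below the line) in each of the 30 cells (columns, with the cell numbers of the labels), as the difference from the median of the 30 cells on the log2 scale. Cells are ordered by germ cell score within each label. Differences beyond 4 in size have the end colour. The lowest *Ifitm3* stands at the right end of the *Prdm14*+/- and WT blocks, in cells 78, 100 and 61. *Kit* is low in cells 100 and 61 but 10.49 in cell 78, and WT cell 31, with *Kit* listed at 0, has *Ifitm3* at 12.64.

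Across cells, *Ifitm3* and *Kit* ran in parallel. Ranked by level, a measure added after the values were seen, the 2 genes had a Spearman correlation of 0.81 over the 30 cells. Of the 11420 probe sets above the floor in at least 15 cells other than that of *Kit*, 0 had a higher one with *Kit*. With *Ifitm3*, 2 probe sets had a higher one than *Kit*. By Pearson correlation *Frg1* was the named gene most like *Kit* (0.73). Pearson's r of *Ifitm3* and *Kit* was 0.55 over all 30, 0.57 without the 2 cells farthest from the median of *Kit* (cells 31 and 100) and 0.83 without cells 61 and 78. It was 0.79, 0.85 and 0.97 within runs 1, 2 and 3 (10 cells each) and 0.65 with values centred within each label and run. Cells on 1 run shared their array handling, and no embryo is named, so these are descriptions of 30 cells. *Kit* and *Alpl* had a Spearman correlation of 0.65 and a Pearson r of 0.43.

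**Figure D5:**
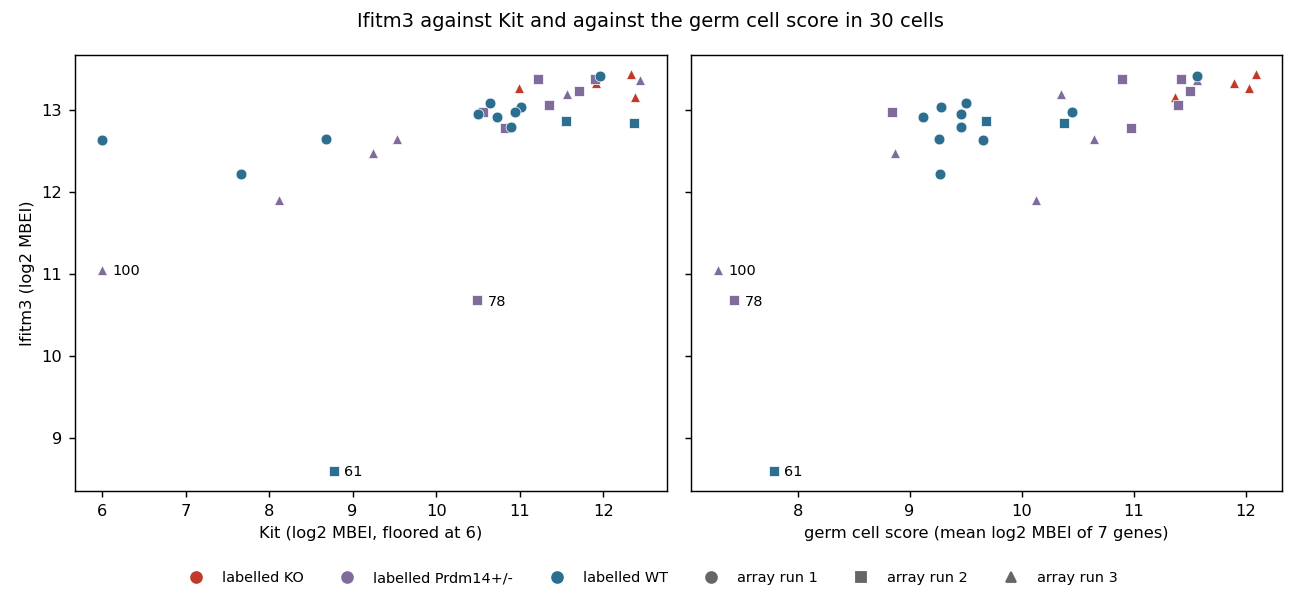
*Ifitm3* (log2 MBEI) against *Kit* (left, floored at 6) and against the germ cell score (right, mean log2 MBEI of 7 genes) in each cell, with the genotype label as colour and the array run as symbol. *Ifitm3* follows *Kit* with a Spearman correlation of 0.81, and cells 61, 78 and 100, numbered in the plots, are the lowest in *Ifitm3* and in the score.

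The 3 *Ifitm* genes were less alike when ranked. Their Pearson correlations over the 30 cells were 0.81 for *Ifitm1* and *Ifitm2*, 0.78 for *Ifitm1* and *Ifitm3* and 0.82 for *Ifitm2* and *Ifitm3*, but the Spearman values were 0.50, 0.44 and 0.57. Without cells 61 and 78 the Pearson values were 0.44, 0.39 and 0.35. The Pearson values over all cells thus depended on these cells, though not in every run. *Ifitm1* and *Ifitm2* had r of 0.05 within run 1 and 0.85 within run 3, which held neither of them, and 0.88 within run 2, which held both. *Ifitm1* and *Ifitm3* had 0.10, 0.90 and 0.52 in runs 1, 2 and 3, and *Ifitm2* and *Ifitm3* 0.52, 0.96 and 0.49.

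*Ifitm3* and *Kit* also ran with most of the germ cell genes. With *Prdm1*, the gene by which the cells were chosen, the Spearman correlation was 0.73 for *Ifitm3* and 0.76 for *Kit*, and with *Dppa3* 0.76 and 0.64. *Lin28a*, an RNA-binding protein gene of the same list, ran the other way, with -0.52 for *Ifitm3* and -0.63 for *Kit*. With the germ cell score it was 0.77 for *Ifitm3*, 0.74 for *Kit*, 0.56 for *Alpl*, 0.46 for *Ifitm2* and 0.38 for *Ifitm1*. With the somatic mesoderm score the values were -0.63, -0.56, -0.36, -0.34 and -0.19 in the same order of genes. With the visceral endoderm score they were 0.43, 0.42, 0.06, 0.55 and 0.38, and with the blood and endothelial score 0.39, 0.30, 0.18, 0.36 and 0.42, so that for *Ifitm2* and *Ifitm1* these lists stood about as high as the germ cell list. The germ cell relation was positive in each run for *Ifitm3* and *Kit*, with Pearson r of 0.62, 0.80 and 0.90 for *Ifitm3* and 0.38, 0.72 and 0.87 for *Kit* in runs 1, 2 and 3. The mesoderm relation was not. In run 1 it was 0.35 for *Ifitm3* and 0.25 for *Kit*, against -0.84 and -0.73 in run 2 and -0.85 and -0.91 in run 3. The number of probe sets above the floor was only weakly related to the members, with Spearman values from -0.31 (*Ifitm1*) to 0.16 (*Itgb3*). The 3′ control probe set of *Gapdh* ran against *Ifitm3*, with a Spearman value of -0.58, and against *Kit*, with -0.44. It was -0.43 for *Itgb3*, -0.37 for *Alpl*, -0.26 for *Ifitm2* and -0.12 for *Ifitm1*. The mean of this control was 13.20 ± 0.06 (SD, n = 4), 13.25 ± 0.13 (SD, n = 13) and 13.36 ± 0.05 (SD, n = 13) under KO, *Prdm14*+/- and WT. Its part in these relations and in the label differences was not tested.

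Outside the lists, the named genes whose levels were most like each member by Pearson correlation (10446 probe sets considered, each with 1 gene symbol and above the floor in at least 15 cells) were *Frg1* (0.73), *Txndc12* (0.73) and *Mov10* (0.72), an RNA helicase, for *Kit*, and *Dnajc13* (0.72) and *Mbtd1* (0.70) for *Alpl*. For *Ifitm3* they were *Actn1* (0.81), which encodes the actin cross-linker α-actinin, and *F11r* (0.78), which encodes the junctional adhesion molecule A. *Pdcd4*, an inhibitor of translation, led for *Ifitm1* (0.72), and *Mrpl23*, a mitochondrial ribosomal protein gene, for *Ifitm2* (0.81). For *Ifitm2* and *Ifitm3*, 0 of the 5 most similar genes were still among the 5 without cells 61 and 78. For *Ifitm1* it was 1 of 5, with *Pdcd4* at 0.31, and for *Kit* and *Alpl* 3 of 5. With values centred within label and run, 1 of 5 was kept for *Kit* and *Alpl* and 2 of 5 for each *Ifitm* gene.

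Among 28 genes of KIT signalling, 21 were measured under their symbol and 20 passed the filter, of which 5 were higher by at least 1 in KO than in WT cells and 2 were lower, beside 11% and 6.11% of all probe sets. *Gab2*, a docking protein downstream of receptor kinases, was 9.0 ± 2.24, 7.03 ± 2.0 and 6.37 ± 1.33 in cells labelled KO, *Prdm14*+/- and WT (SD, n = 4, 13 and 13), and *Sos1*, the exchange factor that activates RAS, differed by 1.43. The adaptor gene *Shc1* was 6.43 ± 0.87, 8.04 ± 1.5 and 8.71 ± 1.58, and the kinase gene *Src* had a KO minus WT difference of -1.94. Between KO and *Prdm14*+/- in run 3, where the rule that named these 4 genes asked for the same sign, the differences were 1.55, 1.58, -1.72 and -0.28. *Kitl*, the ligand, was above the floor in 20 cells and together with *Kit* in 18 cells (3 of 4, 5 of 13 and 10 of 13). Its mean was 8.89 ± 2.04, 7.97 ± 2.34 and 8.70 ± 1.78, with all differences within the spread. The median KO minus WT difference over the 20 genes was 0.48, beside 0.02 for all probe sets. For KO minus *Prdm14*+/- within run 3, 4 of the 20 were higher and 3 lower by at least 1. The shares over all probe sets there were 11.3% and 8.65%, and the median of the 20 was 0.27, beside 0.00 for all.

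Of 26 measured integrin, ligand and adaptor genes, 15 passed the filter, 0 were higher by at least 1 in KO than in WT cells and 3 were lower, beside the same shares of 11% and 6.11% over all. *Itgb5*, which encodes another β partner of αV, was 7.99 ± 2.30, 9.29 ± 2.13 and 9.71 ± 1.51 in cells labelled KO, *Prdm14*+/- and WT, and *Itgb1*, the β subunit of most fibronectin receptors, 7.0 ± 1.37, 7.08 ± 1.10 and 8.02 ± 1.11. No β integrin gene measured other than *Itgb3* was higher by 1 or more in the cells labelled KO. The *Itgb3* difference was 0.99 with a floor of 8 and 0 by the other probe set. *Itgav* had means of 7.83, 7.68 and 7.96. Fibronectin itself (*Fn1*), named after its values were seen, was above the floor in 30 of 30 cells.

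The *Ifitm* members were seen in more cells than most other interferon genes. Of 26 measured genes of the interferon pathway and the *Ifitm* family other than the members, 18 passed the filter, 4 were never above the floor and 1, *Irf1*, was above it in all 30 cells. *Ifitm6* and *Ifitm7* were never above the floor, and *Ifitm5*, which is known for expression in bone-forming cells, was above it in 4. Among genes that interferon induces, named after their values were seen, *Ifit1* and *Mx1* were never above the floor, *Usp18* was in 1 cell, *Mx2* in 2, *Ifit2* and *Ifit3* in 4 each, *Oas1a* and *Rsad2* in 7 each, *Irf7*, *Ifi35* and *Bst2* in 10 each, *Irf9* in 15 and *Ifih1* in 19. Between KO and WT 2 of the 18 were higher by at least 1 and 1 was lower, near the shares of 11% and 6.11% over all probe sets. *Irf3*, a transcription factor of the antiviral response, was 10.77 ± 0.59, 8.96 ± 1.33 and 8.19 ± 1.85 in cells labelled KO, *Prdm14*+/- and WT, and the median of the 18 was 0.01. The mean over the list had a Spearman correlation of 0.31 with *Ifitm3*, 0.39 with *Ifitm2* and 0.13 with *Ifitm1* over the 30 cells.

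Other alkaline phosphatase genes were not seen. *Alppl2*, *Alpi* and *Akp3* were never above the floor in any cell, so that *Alpl* was the only alkaline phosphatase gene detected of the 4 measured, and of the 4 genes of this list that passed the filter 0 differed by 1 or more between KO and WT. Of 16 other germ cell surface genes measured, 12 passed the filter, with 1 higher and 1 lower by at least 1 in KO than in WT cells, also near the shares over all. *Epcam*, an epithelial adhesion gene expressed in PGCs, was 11.90 ± 0.63, 10.36 ± 2.77 and 10.68 ± 1.80 in cells labelled KO, *Prdm14*+/- and WT. *Gja1*, which encodes the gap junction protein connexin 43, was at the floor in all 4 KO cells and above it in 7 of 13 *Prdm14*+/- and 12 of 13 WT cells, with floored means of 6, 8.88 ± 2.80 and 10.25 ± 1.66. Within run 3 the KO minus *Prdm14*+/- difference was -4.48 for *Gja1* and 2.78 for *Epcam*.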

How the data were processed

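Gene expression was measured in 30 single cells taken as PGCs. Per the deposited design text, the authors processed the arrays with dChip 1.3 (PM/MM difference model) and deposited log2 MBEI values. How arrays were scaled to each other and what a value of 0 stands for is not stated in the sources used here. Probe sets were named through the platform annotation. A gene with several was represented by the one of highest mean. Values were floored at 6 (64 MBEI), and probe sets above the floor in at least 3 cells were compared as differences of label means, with 1 as the size counted. Other settings tried were floors of 4 and 8 on the log2 scale, quantile normalization of all arrays, scaling on probe sets above 0 on all arrays, medians, the array run as a block or alone, other probe sets, no filter, and leaving out each cell labelled KO. Leaving out cells 61 and 78, or 61 alone with the run as a block, and ranking by Spearman correlation were added after the values were seen. The members and gene lists were chosen with earlier results of these data known. Named genes were the members, *Prdm14*, *Prdm1* and *Dppa3*, the 5 genes most like each member, the partners and ligands, and in each list up to 4 genes with the largest KO minus WT difference of at least 1, the same sign in run 3 and a mean of 8 or more in the KO or WT label. Promoter windows came from RefSeq for GRCm38.p6. A planned comparison of IFITM proteins was not run. The calculation was tested on simulated data. Python 3.11.15, NumPy 2.4.6, pandas 2.3.3, SciPy 1.17.1 and matplotlib 3.10.9 were used. The number of arrays limits precision.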

Additional observations from a re-analysis of the deposited data

How the results depend on the processing

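Of 180 differences between labels recomputed under the other settings, 165 moved by less than the spread between cells, 10 moved by more, and 5 of size 1 or more lost or changed their sign. The 5 are the other *Kit* probe set, with -0.35 for KO minus WT and 0 for KO minus *Prdm14*+/-, the other *Itgb3* probe set, with 0 for both, and *Alpl* KO minus WT with the array run as a block, at -0.0059. Of the 165, another 8 lost or changed sign, all *Prdm14*+/- minus WT and under 1 in size. These were *Alpl* at -0.45 and *Ifitm2* at 0.44 (run as a block and run 2 alone), *Kit* at -0.35 (other probe set) and -0.05 (mean of both), and *Itgb3* at 0 (medians and other probe set). *Itgb3* KO minus WT was 3.86 with a floor of 4, 0.99 with a floor of 8 and 1.25 as the mean of both probe sets, and KO minus *Prdm14*+/- was 3.65, 0.96 and 1.15. Leaving out each cell labelled KO gave 1.98 to 3.32 for *Itgb3* KO minus WT, the highest without cell 8. With the run as a block *Ifitm3* was 2.21 for KO minus WT and 1.35 for *Prdm14*+/- minus WT, the same as in run 2 alone. Without WT cell 61, left out after its values were seen, that fit gave 0.79 and -0.07 for *Ifitm3*, and -0.14 and -0.59 for *Alpl*. *Prdm14*+/- cell 78, with *Alpl* at 7.90, was kept in the fit. By the other probe sets, *Kit* was above the floor in 0 KO, 0 *Prdm14*+/- and 3 WT cells, and *Itgb3* in 0 of each label. The number of probe sets higher by at least 1 was 2430 for KO minus WT, 2077 for KO minus *Prdm14*+/-, 704 for *Prdm14*+/- minus WT, 2500 for run 3 and 1794 for run 2. It was 4633, 4193, 2030, 4696 and 3622 with a floor of 4, and 619, 451, 72, 723 and 467 with a floor of 8. Floors move these counts by construction, and the cause of the other moves was not tested. Without cells 61 and 78, 0 of 18 differences moved by more than the spread between cells. Of 15 Pearson correlations, 4 moved outside the approximate 95% interval of the value over 30 cells, which treats the cells as independent. The 4 were *Kit* with *Ifitm3* and the 3 pairs of *Ifitm* genes. No paired analysis was possible because the labels name no embryo and give cells no number shared across genotypes. A weak transcript cannot be told from an absent one where a value is 0, and 4 cells labelled KO limit every comparison.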
